A study of Homo sapiens with 8 samples.

Results

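The genes described here encode proteins that bind DNA or linker DNA beside the nucleosome: the HMGA proteins (HMGA1, HMGA2), the HMGB proteins (HMGB1, HMGB2, HMGB3) and the replacement linker histones H1.0 (H1F0) and H1.X (H1FX). They were chosen by name as chromatin proteins that share the nucleosome with HMGN1, and they are 7 of the 23621 genes in the expression tables. Of these, 5 reached the minimum level for testing (a mean of 1 normalized FPKM), and H1F0 and HMGA2 did not.

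RNA was measured by poly(A) sequencing in NALM6, a long-established leukemia line of B-cell precursors, and given as FPKM, that is, fragments per kilobase of gene length for a given number of mapped fragments. The cells carried wild-type HMGN1 (WT) or the HMGN1 mutant S20,24E (SE), in which serines 20 and 24 are exchanged so that the protein no longer binds nucleosomes. Cells received doxycycline (DOX) at 100 ng/ml, to switch on the HMGN1 construct, or vehicle, each for 6 h. There were 2 libraries, labelled A and B as biological replicates, in each of 4 groups, vehicle and DOX for either construct. Every library was from NALM6 cells with an HMGN1 construct, and no library without a construct was analysed here. Whether each construct line was a single clone, and how cultures A and B were kept apart, is not given here by labels or notes, so p-values measure the spread between these libraries.

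Linker histones of the H1 family sit where DNA enters and leaves the nucleosome and compact the fiber. HMGN, HMGA and HMGB proteins compete with H1 for nucleosomes and shorten its stay there. HMGA proteins bind AT-rich minor grooves through AT hooks, HMGB proteins bend DNA through HMG boxes, and H1.0 is the linker histone known to build up in cells that leave the cell cycle.

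Promoter sequences are shown for the HMGB genes with a window in the RefSeq promoter table and for a linker histone of each kind. The linker histones are H1FX (replacement) and HIST1H1D (replication-dependent), and neither stands for all genes of its kind. RefSeq (GRCh38.p14) windows were matched for 4 of the 7 genes: HMGA1, HMGB1, HMGB3 and H1FX. There was no entry for HMGA2, HMGB2 and H1F0. Each sequence is the 250 bases before the first listed start, read 5′ to 3′ on the gene's strand, and capitals mark motif matches in that reading direction. The motifs searched, on both strands, were the CCAAT box, the TATA box and the H1 box of histone promoters, and their letters are given with the matches. A TATA box and an H1 box can overlap in their letters, but no matches overlap in these 4 windows. HMGB1 is at chr13:30465937-30466186 (minus strand), HMGB3 at chrX:150983085-150983334 (plus strand), H1FX (H1-10) at chr3:129316287-129316536 (minus strand) and HIST1H1D (H1-3) at chr6:26234988-26235237 (minus strand).
HMGB1: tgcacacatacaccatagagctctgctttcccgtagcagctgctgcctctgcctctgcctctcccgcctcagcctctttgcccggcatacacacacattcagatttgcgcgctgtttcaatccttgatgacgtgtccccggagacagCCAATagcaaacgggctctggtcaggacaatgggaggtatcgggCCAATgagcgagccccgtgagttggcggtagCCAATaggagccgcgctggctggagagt
HMGB3: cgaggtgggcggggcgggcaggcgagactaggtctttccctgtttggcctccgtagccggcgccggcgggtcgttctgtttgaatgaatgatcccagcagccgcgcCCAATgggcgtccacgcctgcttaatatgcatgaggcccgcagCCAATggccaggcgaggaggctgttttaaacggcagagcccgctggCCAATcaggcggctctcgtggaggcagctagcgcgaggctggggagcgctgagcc
H1FX: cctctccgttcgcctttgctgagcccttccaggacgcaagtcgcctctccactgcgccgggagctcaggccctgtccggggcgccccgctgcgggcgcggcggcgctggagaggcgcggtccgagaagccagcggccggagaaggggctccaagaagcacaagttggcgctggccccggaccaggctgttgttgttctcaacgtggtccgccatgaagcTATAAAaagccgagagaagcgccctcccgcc
HIST1H1D: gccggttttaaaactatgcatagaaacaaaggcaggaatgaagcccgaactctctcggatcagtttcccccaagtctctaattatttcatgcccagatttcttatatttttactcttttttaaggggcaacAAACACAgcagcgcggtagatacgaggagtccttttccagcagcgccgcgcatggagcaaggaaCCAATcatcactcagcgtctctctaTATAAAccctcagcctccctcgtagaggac

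The printed HMGB1 window held CCAAT 3 times on the gene's strand, 103, 59 and 28 bases before the start. The printed HMGB3 window held it 3 times too, at 144, 101 and 55 bases. HMGB1 had 3 windows and HMGB3 had 2, and the further ones did not hold CCAAT on the gene's strand. A further HMGB1 window held it on the opposite strand, at 115 bases. H1FX had no CCAAT match in its window and a TATAAA 31 bases before the start. HIST1H1D, a replication-dependent H1 gene, had the arrangement known from that class: AAACACA (the H1 box) at 119 bases, CCAAT at 55 and TATAAA at 30. HIST1H1E also held TATAAA, at 29 bases, but HIST1H1B and HIST1H1C had AAACACA and CCAAT without a TATAAA match. On either strand, CCAAT was found in 32% of the 35116 promoter windows of this length, TATAAA in 10.7% and AAACACA in 4.82%. Of the 2 HMGA1 windows, 1 held CCAAT, on the opposite strand and 146 bases before the start. A match describes the letters only.

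HMGN1, the gene that the construct encodes, stood at 793 to 809 unnormalized FPKM in the 4 WT libraries and at 1061 to 1427 in the 4 SE libraries. Its level was no higher in libraries labelled DOX than in their vehicle controls, so the labels of treatment have no check from this gene. Whether fragments of the construct's transcript were counted in the HMGN1 row is not known. All 10 B-cell precursor markers passed the level filter, with a summed level of 2152 to 2403 FPKM in WT and 1941 to 2333 in SE. The T-cell list had 0 of 6 markers tested, 3 of them (CD2, CD3G, TRAT1) at 0 everywhere, and the erythroid list had 0 of 5, with HBB at 0. Of the myeloid markers 1 of 6 was tested (LYZ, with S100A8 and S100A9 at 0), with a summed level of 1.82 to 4.86 FPKM in WT and 1.54 to 2.27 in SE, and of the stromal markers 1 of 5 (PDGFRB). The ERCC spike-ins, synthetic RNAs added in equal amount to the RNA of equal cell numbers, summed to 5675 to 10042 in the unnormalized table and to 7050 to 7166 in the normalized one. The normalized table, which is meant as a level per cell, differs between libraries in its median gene, from 3.41 (log2) in SE DOX A to 4.24 in WT vehicle A. Less RNA per cell and fewer cells in the tube cannot be told apart.

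HMGB1 and HMGB2 were among the most abundant messages of these cells, and the order of the genes was clear except at its ends. By the mean over 8 libraries HMGB1 ranked 112 of the 11163 genes tested and HMGB2 117. HMGA1 ranked 243, H1FX 1653 and HMGB3 3020. HMGB1 exceeded HMGB2 in 6 of 8 libraries of the unnormalized table and their ranges overlapped, so their order was not the same in all libraries. HMGB2, HMGA1, H1FX, HMGB3 and H1F0 followed with ranges that did not overlap from each gene to the next. H1F0 and HMGA2 were at the bottom and were both listed at 0 in WT DOX B.

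HMGB1, the DNA-bending HMG-box protein that is also released from damaged cells as an alarm signal, had 691 (A) and 765 (B) unnormalized FPKM in WT vehicle and 680 (A) and 774 (B) in WT DOX. The SE vehicle libraries had 617 (A) and 708 (B), and the SE DOX libraries had 613 (A) and 707 (B). B was above A in each of the 4 groups, and the DOX and vehicle libraries of a letter were nearly equal. Within each letter both WT libraries were above both SE libraries, but the WT and SE ranges overlapped when letters were pooled, since WT A was below SE B. On the normalized scale HMGB1 was 842 ± 42.3 FPKM (SD, n = 2) in WT vehicle and 825 ± 14.8 (SD, n = 2) in WT DOX. It was 630 ± 94.9 (SD, n = 2) in SE vehicle and 539 ± 150.3 (SD, n = 2) in SE DOX. All WT libraries were above all SE libraries on this scale, where 67% of all tested genes do not overlap.

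HMGB2, the paralog that is abundant in dividing lymphoid cells and a partner of the SET complex, had 573 (A) and 698 (B) unnormalized FPKM in WT vehicle and 576 (A) and 686 (B) in WT DOX. SE vehicle had 694 (A) and 677 (B), and SE DOX had 689 (A) and 696 (B). The WT A libraries were the low ones, and the other 6 lay close together. On the normalized scale HMGB2 was 732 ± 12.1 FPKM (SD, n = 2) in WT vehicle, 715 ± 10.4 (SD, n = 2) in WT DOX, 650 ± 23.3 (SD, n = 2) in SE vehicle and 560 ± 105 (SD, n = 2) in SE DOX.

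HMGB3 is the third widely expressed HMGB protein, known from blood progenitors. In the unnormalized table it was the steadiest of the tested genes, with its highest library 1.16 times its lowest. In the normalized table it was not, at 20.2 to 36.8 FPKM, beside 46.7 to 62.1 for H1FX. Its unnormalized FPKM were 28.6 (A) and 33.2 (B) in WT vehicle, 29.6 (A) and 33.0 (B) in WT DOX, 29.7 (A) and 32.4 (B) in SE vehicle and 28.7 (A) and 32.8 (B) in SE DOX. The A libraries of all 4 groups were below the B libraries, and WT and SE overlapped fully. On the normalized scale the means were 36.1 ± 0.0642 (SD, n = 2) in WT vehicle, 35.8 ± 1.38 (SD, n = 2) in WT DOX, 29.5 ± 3.88 (SD, n = 2) in SE vehicle and 25.0 ± 6.73 (SD, n = 2) in SE DOX.

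HMGA1, the AT-hook protein that is abundant in dividing and leukemic cells, had 280 (A) and 300.0 (B) unnormalized FPKM in WT vehicle and 294 (A) and 287 (B) in WT DOX. SE vehicle had 224 (A) and 285 (B), and SE DOX had 220.3 (A) and 297 (B). The 2 SE A libraries were low, and the SE B libraries lay within the WT range. On the normalized scale HMGA1 was 337 ± 24.0 FPKM (SD, n = 2) in WT vehicle, 332 ± 41.4 (SD, n = 2) in WT DOX, 242 ± 54.9 (SD, n = 2) in SE vehicle and 213 ± 81.7 (SD, n = 2) in SE DOX. HMGA2, the fetal paralog held down by the let-7 microRNAs in many adult cells, was listed at 0 in all 8 libraries of the unnormalized table and at a floor of 0.0948 to 0.105 in the normalized one.

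H1FX, the replacement linker histone H1.X, was the most abundant linker histone message in these poly(A) libraries. Most replication-dependent H1 messages carry no poly(A) tail, so their levels in the cells cannot be ranked against it here. H1FX had 43.9 (A) and 57.6 (B) unnormalized FPKM in WT vehicle and 41.4 (A) and 52.2 (B) in WT DOX. It had 60.8 (A) and 59.0 (B) in SE vehicle and 66.3 (A) and 60.8 (B) in SE DOX. The 4 WT libraries, at 41.4 to 57.6, did not overlap the 4 SE libraries, at 59.0 to 66.3, as for 19.9% of all tested genes. On the normalized scale the difference was not seen: the means were 58.7 ± 4.84 (SD, n = 2) in WT vehicle, 53.1 ± 2.60 (SD, n = 2) in WT DOX, 56.7 ± 2.55 (SD, n = 2) in SE vehicle and 50.9 ± 5.98 (SD, n = 2) in SE DOX, and the ranges overlapped. H1FX-AS1, the antisense transcript at this locus, stood at 0.411 to 0.539 unnormalized FPKM in WT and 0.560 to 0.669 in SE. Nothing in the labels says that the library kit keeps strand, and fragments of the pair cannot be told apart. Processed copies of HMGA1 and HMGB3 with rows of their own, HMGA1P7 and HMGB3P1, reached at most 0.0368 and 0.0536, but the HMGB genes have many further copies and their levels may include shared fragments.

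**Figure D1:**
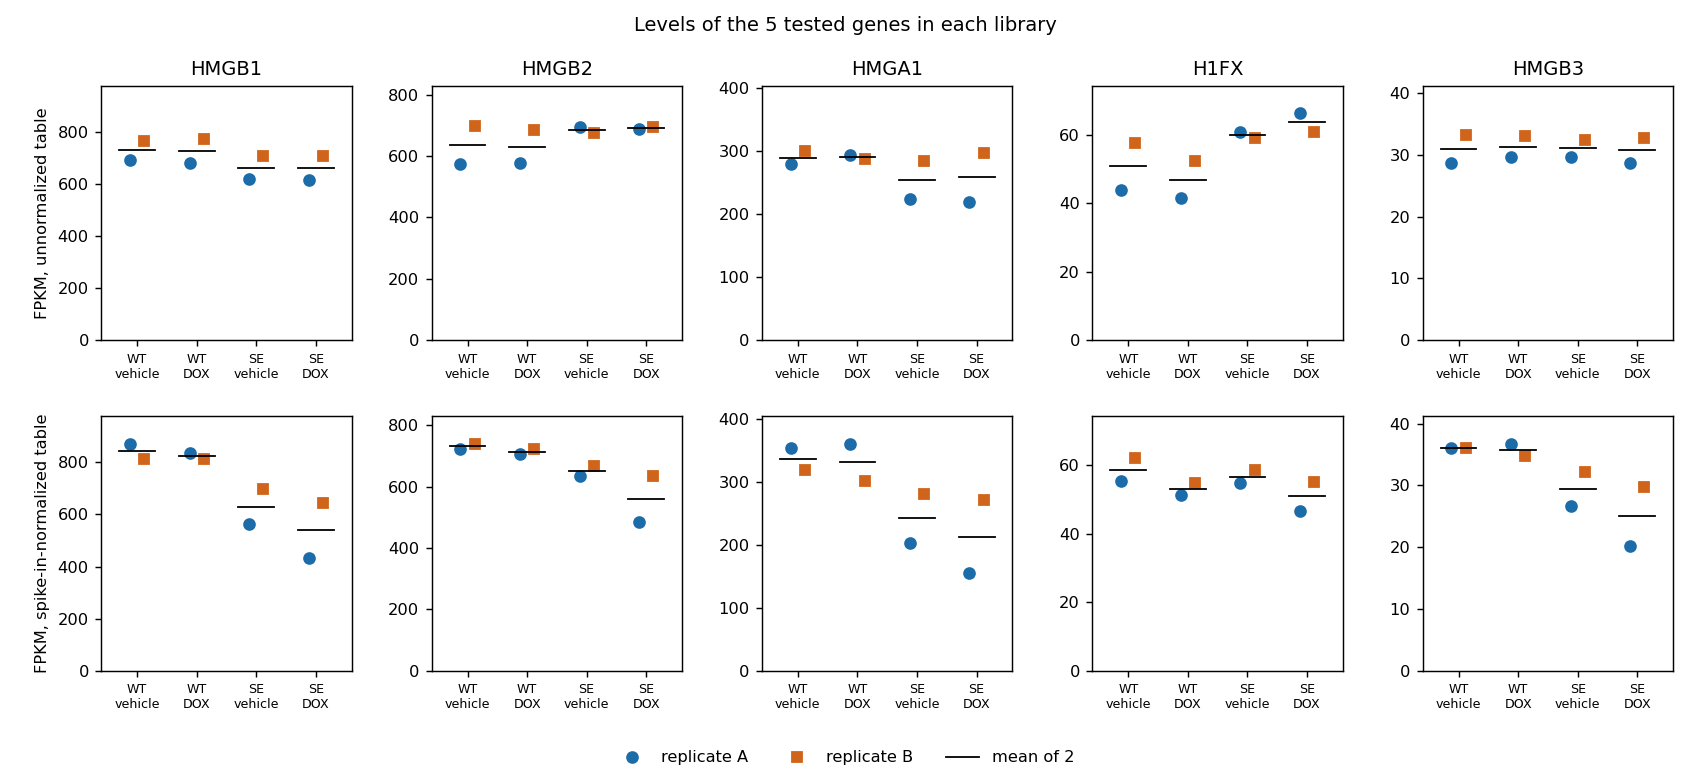
FPKM of the 5 tested genes in each library, with the unnormalized table above and the spike-in-normalized table below (linear axes from 0). Points are libraries (A circles, B squares) and lines the mean of the 2 libraries of a group. In the lower row all HMGB1, HMGB2, HMGB3 and HMGA1 values of WT lie above those of SE, whereas in the upper row only H1FX separates the constructs, with SE at 59.0 to 66.3.

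H1F0, which encodes H1.0, was nearly absent from the WT libraries and low but present in the SE libraries. Its unnormalized FPKM were 0.0237 (A) and 0.0104 (B) in WT vehicle and 0.0151 (A) and 0 (B) in WT DOX. They were 0.464 (A) and 0.338 (B) in SE vehicle and 0.422 (A) and 0.303 (B) in SE DOX. The unnormalized table writes no value between 0 and 0.01, and 6285 of its values stand at exactly 0.01, but every H1F0 value above 0 lies above that floor. These values are whole multiples of the value of 1 fragment, so fragments could be counted: within 0.01 of a whole number, they stand for 3 (A) and 1 (B) fragments in WT vehicle, 2 (A) and 0 (B) in WT DOX, 54 (A) and 40 (B) in SE vehicle and 61 (A) and 33 (B) in SE DOX. Every SE library was far above every WT library, in vehicle as in DOX.

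Exact Poisson 95% intervals, which cover counting error only, reached up to 8.77 fragments in the highest WT library and down to 22.7 in the lowest SE library. The same steps gave the relative depth of the libraries, from 0.757 (WT vehicle B) to 1.14 (SE DOX A) times that of WT vehicle A, so depth was far more alike than the H1F0 counts. With depth taken into account, the vehicle libraries of SE held 22.3 times the H1F0 fragments of WT (95% interval 8.43 to 83.6, from 94 and 4 fragments). In DOX the ratio was 43.7 (95% interval 11.8 to 366, from 94 and 2 fragments). These intervals are conditional on the totals and compare these libraries, not the conditions. Leaving out a library at a time, the vehicle ratio ran from 16.9 (without WT vehicle B) to 38.4 (without WT vehicle A). The DOX ratio ran from 24.6 (without WT DOX B) to 49.7 (without SE DOX B). Without WT DOX A, where the remaining WT library has 0 fragments, the SE level was at least 12.7-fold higher against a floor of 3 fragments in that library.

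H1F0 could be tested only without the filter on low values. In that limma fit of 21906 genes, on the spike-in scale, its log2 difference of WT minus SE was -1.36 (standard error 0.14, adjusted p = 0.0209) in vehicle. In DOX it was -1.23 (standard error 0.14, limma adjusted p = 0.0383). Of the 21906 genes this fit called 22 in vehicle and 20 in DOX. The DOX effects of H1F0 did not pass in either construct, at -0.07 in WT and -0.20 in SE (limma adjusted p = 1.00 and 0.789). These fold changes understate the ratio of fragments because the normalized table holds a floor of about 0.1 FPKM for listed zeros, to which 0.1 was added. With equal medians the differences were -1.51 and -1.57 (limma adjusted p = 9.47e-09 and 1.50e-09), in a fit that called 302 and 325 genes. But there HMGA2, listed at 0 everywhere, also gave -0.11 and -0.34, since the shift moves listed zeros.

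**Figure D2:**
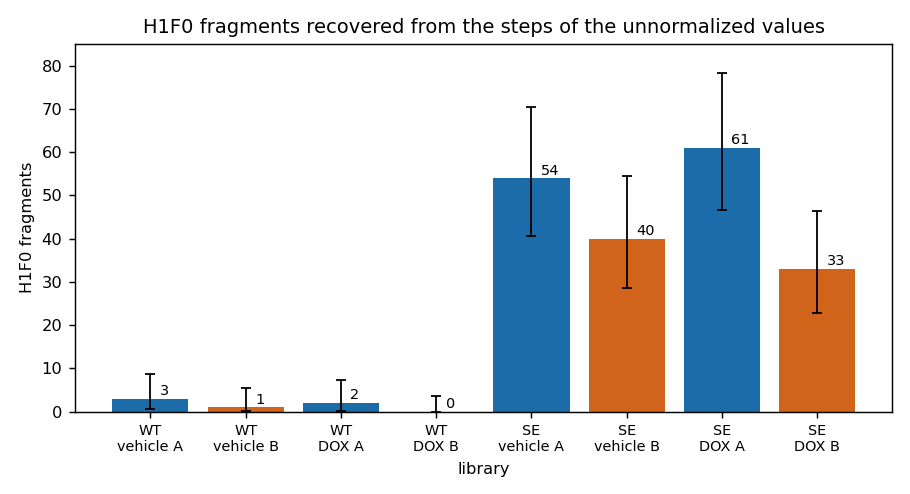
H1F0 fragments in each library, recovered from the steps of the unnormalized values, with exact Poisson 95% intervals (counting error only) and not adjusted for depth. WT libraries hold 0 to 3 fragments and SE libraries 33 to 61.

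Other linker histone genes, in a list of 11 H1 genes, were low by comparison. As background, most replication-dependent histone messages carry no poly(A) tail, so this order is that of poly(A) libraries only. Only H1FX and HIST1H1C were tested, and neither was called in any comparison. HIST1H1C (H1.2) had 4.57 (A) and 3.08 (B) unnormalized FPKM in WT vehicle, 4.03 (A) and 3.45 (B) in WT DOX, 5.08 (A) and 2.29 (B) in SE vehicle and 5.01 (A) and 2.82 (B) in SE DOX. Here A was above B in every group, the opposite of HMGB1 and HMGB3. HIST1H1D, whose promoter is printed above, and HIST1H1E are described outside the rule for named genes, after their values were seen, as are LIN28A and LIN28B below.

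HIST1H1D (H1.3) gave 5 (A) and 2 (B) fragments in WT vehicle, 11 (A) and 1 (B) in WT DOX, 25 (A) and 2 (B) in SE vehicle and 30 (A) and 6 (B) in SE DOX. HIST1H1B (H1.5) gave 22 (A) and 6 (B) in WT vehicle, 25 (A) and 15 (B) in WT DOX, 30 (A) and 10 (B) in SE vehicle and 44 (A) and 11 (B) in SE DOX. For both, A was above B in each group, as it was for H1F0. The constructs overlapped for both, unlike for H1F0. Within A, both SE libraries were above both WT libraries for either gene. HIST1H1E (H1.4) gave 5 to 38 fragments over the 8 libraries and also overlapped. H1FNT and H1FOO, known from testis and oocytes, were listed at 0 in all libraries, and HIST1H1A, HIST1H1T and HILS1 did not exceed 0.0571 FPKM.

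**Figure D3:**
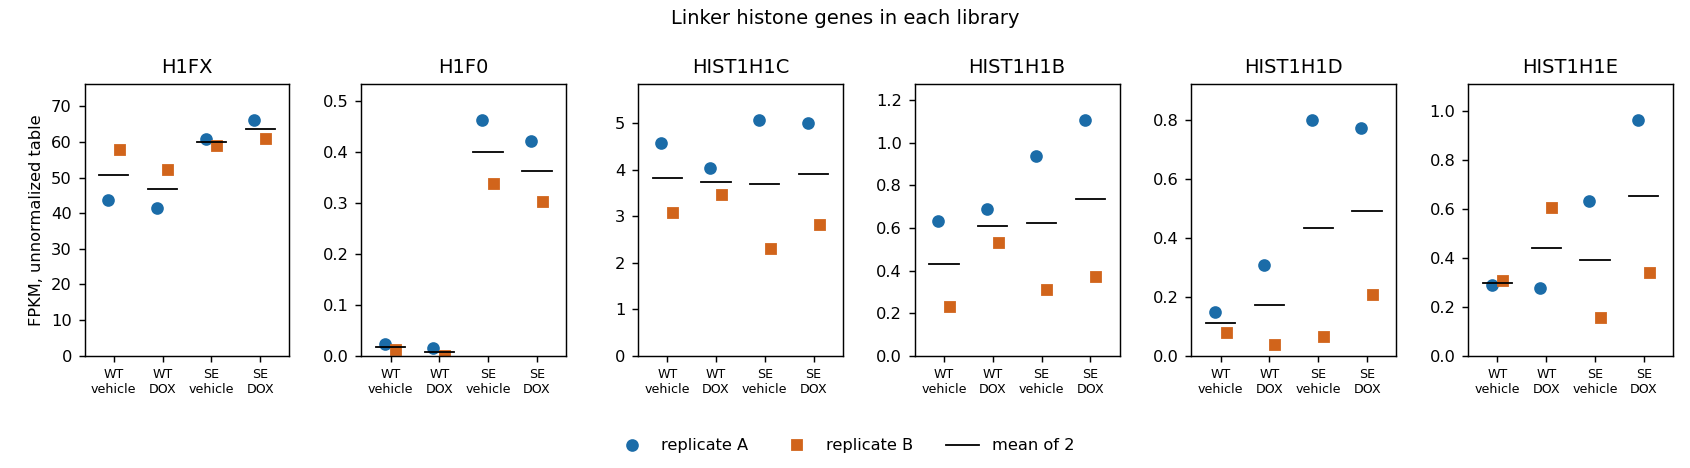
Unnormalized FPKM of 6 linker histone genes in each library (linear axes from 0, with a separate range per gene). Points are libraries (A circles, B squares) and lines group means of 2 libraries. H1F0 and H1FX separate WT from SE in all 4 against 4 libraries, whereas HIST1H1C, HIST1H1B, HIST1H1D and HIST1H1E overlap. A lies above B in every group for H1F0, HIST1H1C, HIST1H1B and HIST1H1D but not for HIST1H1E. DOX and vehicle libraries of a letter were alike, so the 4 libraries of a construct may not be 4 independent replicates.

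The comparison of DOX with vehicle asks whether 6 h of doxycycline changed these genes with either construct. Of the 5 tested genes 0 were called in WT on the spike-in scale, where 0% of all genes were called (limma, Benjamini-Hochberg adjusted p under 0.05), and 0 of the 5 had an unadjusted p under 0.05, against 14 of all genes tested. Their log2 differences of DOX minus vehicle ran from -0.14 (H1FX) to -0.01 (HMGB3), with a median of -0.03 beside -0.03 over all genes. In SE 0 of 5 were called, against 0.00896% of all genes, and 0 of the 5 had an unadjusted p under 0.05 (33 of all genes did). Here the values ran from -0.26 (HMGB3) to -0.16 (H1FX), with a median of -0.23, while the median of all genes was -0.24. By letter, the log2 ratios of normalized DOX over vehicle in SE were -0.40 to -0.23 in A and -0.12 to -0.05 in B, so most of the difference lay with SE DOX A, the library with the lowest median.

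Because of this shift every comparison was also fitted with library medians made equal, which reads a gene against the median gene. On that scale 0 of 5 genes were called for DOX in WT (0% of all genes) and 0 of 5 in SE (0% of all genes), and 0 of the 5 had an unadjusted p under 0.05 in either, against 13 and 12 of all genes. The HMGB1 difference in WT was 0.00, with a 95% interval of -0.29 to 0.30, and in SE it was -0.00, with -0.30 to 0.29. The HMGA1 difference in WT was 0.00 (-0.37 to 0.38), and 0.02 (-0.35 to 0.40) in SE. These intervals leave out a rise of HMGB1 or HMGA1 by more than 0.40 on the log2 scale relative to the median gene, and smaller changes within them are not excluded. The WT value of H1FX was -0.11 (-0.46 to 0.23) and the SE value 0.09 (-0.26 to 0.43).

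Within a letter, the unnormalized DOX and vehicle values were close. The largest absolute log2 ratio over the 4 pairs was 0.0213 for HMGB1, 0.0393 for HMGB2, 0.0471 for HMGB3, 0.066 for HMGA1 and 0.143 for H1FX. Over all genes tested the median of that largest ratio was 0.0909, above the HMGB genes and HMGA1 and below H1FX. By the median absolute ratio of the 4 pairs, HMGA1 at 0.0621 and H1FX at 0.105 were above the median gene at 0.0453, and the HMGB genes were below it. Between letters of a group the largest ratio was 0.206 for HMGB1 and 0.432 for HMGA1, beside 0.224 for the median gene.

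The difference of the DOX effects between constructs, WT minus SE, asks whether DOX changed these genes differently in WT and SE. It cannot show whether wild-type HMGN1 acts on them, since the HMGN1 level gave no check that DOX switched on the construct. The difference was called for 0 of 5 genes on the spike-in scale (0.00896% of all genes). With equal medians it was called for 0 of 5 (0% of all genes). None of the 5 had an unadjusted p under 0.05 on either scale, against 16 and 8 of all genes. On the spike-in scale HMGB1 had the value 0.22, HMGA1 0.19, HMGB2 0.19, HMGB3 0.25 and H1FX 0.02, with a median over all genes of 0.21 (limma adjusted p from 0.817 to 0.974). With equal medians 4 of the 5 lay between -0.02 and 0.03, and H1FX was at -0.20 (95% interval -0.68 to 0.29, limma adjusted p = 1.00).

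The comparison of WT with SE asks how lines with the 2 constructs differ, in vehicle and in DOX. On the spike-in scale 0 of 5 genes were called in vehicle, against 0.493% of all genes, and 0 of the 5 had an unadjusted p under 0.05 (1410 of all genes did). The log2 difference of WT minus SE was 0.49 for HMGA1 and 0.42 for HMGB1, above the median of all genes of 0.32, and 0.05 for H1FX, below it. In DOX 0 of 5 were called, against 4.66% of all genes. HMGA1 was at 0.69 (standard error 0.30, limma adjusted p = 0.0574), HMGB1 at 0.64 (standard error 0.31, adjusted p = 0.0684) and HMGB3 at 0.54 (standard error 0.24, adjusted p = 0.0575). These 3 had an unadjusted p under 0.05, as did 7465 of all genes, whose median was 0.53. Without SE DOX B, where SE DOX rests on the library with the lowest median, the 3 passed with values of 1.09, 0.93 and 0.82, and so did most genes, with 8766 calls.

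Relative to the median gene the 5 genes went different ways. With equal medians 0 of 5 were called in vehicle (0.0896% of all genes) and 0 of 5 in DOX (0.0806% of all genes). In vehicle WT minus SE was 0.20 for HMGA1, 0.13 for HMGB1, -0.00 for HMGB3, -0.13 for HMGB2 and -0.25 for H1FX, with 0 of 5 at an unadjusted p under 0.05 (805 of all genes). In DOX H1FX was at -0.45 (standard error 0.15, 95% interval -0.79 to -0.10, limma adjusted p = 0.665), the only one of the 5 with an unadjusted p under 0.05 (765 of all genes). This value stood at the lowest 2.84% of all genes. HMGB2 was at -0.15, with an interval of -0.45 to 0.15 that includes 0.

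**Figure D4:**
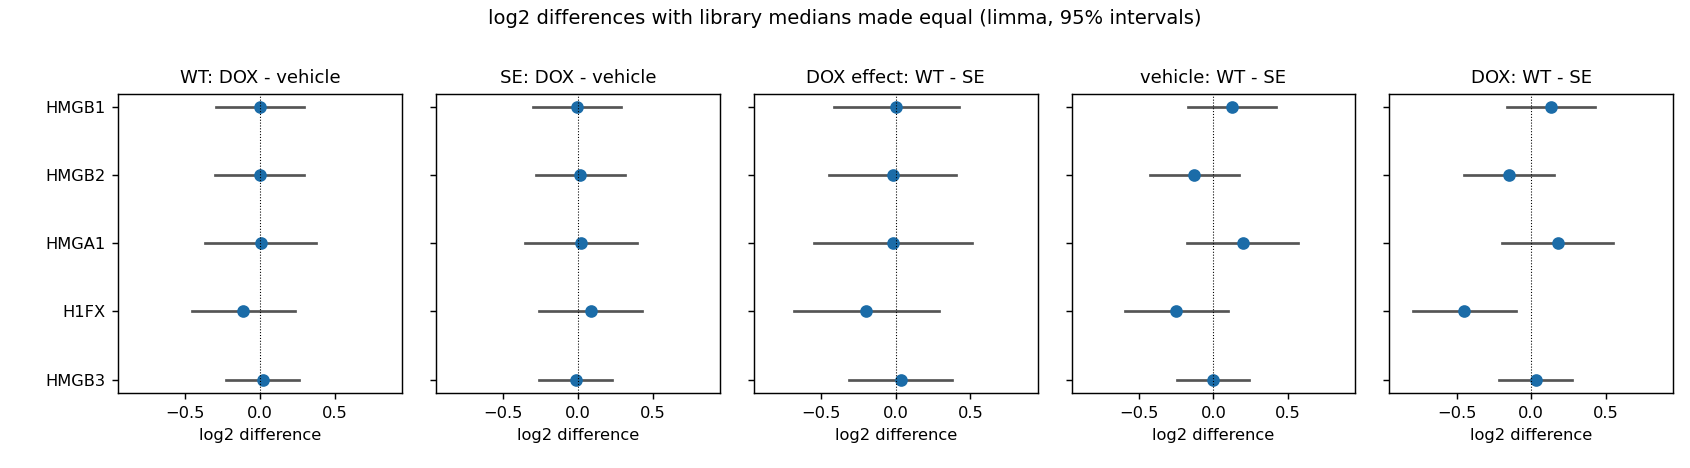
log2 differences of the 5 tested genes in the 5 comparisons, with library medians made equal. Points are limma estimates from 8 libraries and lines 95% intervals. All intervals include 0 except that of H1FX in WT minus SE under DOX, at -0.79 to -0.10, whose adjusted p of 0.665 did not pass.

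The letters A and B bear on these differences, and values within a letter are given here. For HMGA1 the unnormalized log2 ratio of WT over SE was 0.33 (vehicle) and 0.41 (DOX) in A and 0.08 and -0.05 in B. HMGB1 gave 0.16 and 0.15 in A and 0.11 and 0.13 in B. The HMGB1 ratio was thus similar in both letters, while that of HMGA1 was larger in A and near 0 in B. HMGB2 gave -0.28 and -0.26 in A and 0.04 and -0.02 in B. H1FX gave -0.47 and -0.68 in A and -0.03 and -0.22 in B, so SE was higher in all 4 pairs and most in A. The labels do not say whether the letters mark a batch, and their part in these differences was not tested.

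Set side by side, WT and SE did not overlap in the unnormalized table for H1F0 and H1FX, both higher in SE. Of the 5 tested genes this is 1 of 5, and 19.9% of all tested genes do not overlap there (1313 higher in WT and 903 higher in SE). In the normalized table HMGA1, HMGB1, HMGB2 and HMGB3 did not overlap, all higher in WT, and H1F0 was again higher in SE. This is 4 of the 5 tested genes beside 67% of all tested genes, nearly all of which (7442 of 7479) are higher in WT. The share is near that of all genes. DOX and vehicle libraries of a letter were alike, so the 4 libraries of a construct may not be 4 independent replicates.

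Ratios between genes of the same library do not depend on how libraries are scaled. The ratio of HMGB1 to HMGB2 was 1.20 (A) and 1.10 (B) in WT vehicle and 1.18 (A) and 1.13 (B) in WT DOX. SE vehicle had 0.889 (A) and 1.05 (B), and SE DOX 0.890 (A) and 1.02 (B). All 4 WT libraries were above all 4 SE libraries, and HMGB2 exceeded HMGB1 in the 2 SE A libraries only. The ratio of HMGA1 to H1FX was 6.39 (A) and 5.21 (B) in WT vehicle, 7.10 (A) and 5.50 (B) in WT DOX, 3.68 (A) and 4.83 (B) in SE vehicle and 3.32 (A) and 4.89 (B) in SE DOX. It too was higher in every WT library than in any SE library. HMGB1 stood 23.0 to 24.1 times above HMGB3 in WT and 20.8 to 21.8 times in SE. The ratio of PTMA to HMGB1 overlapped, at 5.53 to 5.91 in WT and 5.27 to 5.80 in SE. Of single tested genes 19.9% do not overlap in the unnormalized table, and the share of gene pairs was not computed. These pairs of genes were chosen after their values were seen, and no test was made. Here too the 4 libraries of a construct may not be 4 independent replicates, since those of a letter were alike.

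**Figure D5:**
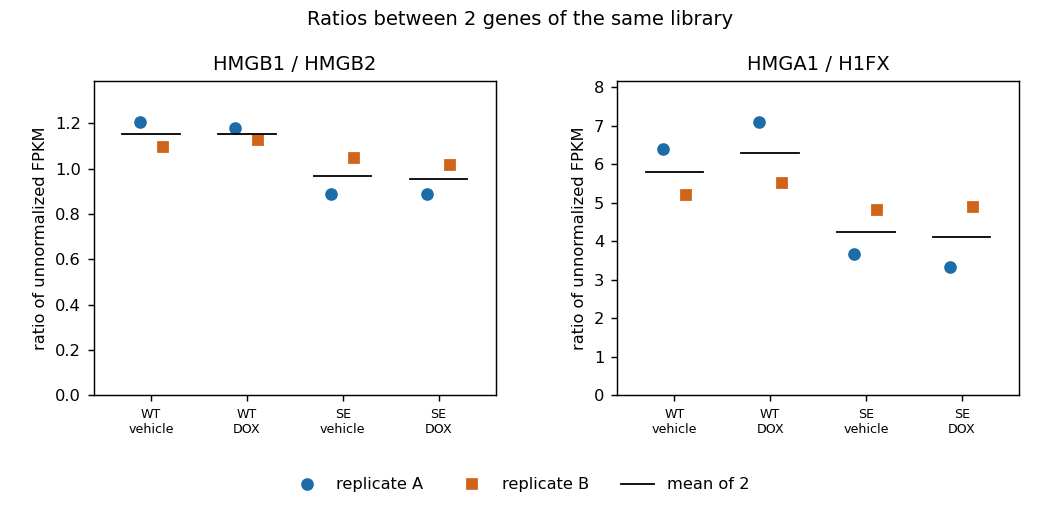
Ratio of HMGB1 to HMGB2 (left) and of HMGA1 to H1FX (right) in each library, from unnormalized FPKM on linear axes from 0. Points are libraries (A circles, B squares) and lines group means of 2 libraries. All 4 WT libraries lie above the 4 SE libraries in both panels, at 1.10 to 1.20 and 5.21 to 7.10.

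Proteins that carry or displace H1 were tested in full, 8 of 8, and 0 were called in any comparison. On the equal-median scale their log2 differences of WT minus SE in vehicle were all above 0, as were 56.9% of all genes. They ran from 0.08 to 0.26, with a median of 0.17 beside 0.03 over all genes. PTMA (prothymosin alpha, an acidic protein that binds H1) ran from 3819 to 4518 unnormalized FPKM in WT and from 3251 to 4099 in SE. NPM1 (nucleophosmin) ran from 1778 to 1870 in WT and from 1286 to 1723 in SE. SET ran from 517 to 553 in WT and from 431 to 502 in SE. Neither overlapped, as for 19.9% of all tested genes. In vehicle NPM1 had 1870 in WT and 1336 in SE in A, against 1800.5 and 1723 in B. PTMA had 3819 and 3251 in A, against 4518 and 4076 in B. SET had 518 and 432 in A, against 553 and 497 in B. SET and 5 partners of HMGB2 in the SET complex, among them NME1 and ANP32B, had 0 of 6 called and a median of 0.16 in vehicle. Of the other architectural proteins 12 of 13 were tested and 0 were called, with a median of 0.07. Of these HDGF stood at 321 to 396 FPKM over all libraries, PARP1 at 233 to 283 and CBX3 at 185 to 242.

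Among the other HMG-box genes 19 of 25 were tested and TOX was the only one called, in WT against SE on the spike-in scale, where 0.493% of all genes were called in vehicle and 4.66% in DOX. TOX, an HMG-box protein of lymphocyte development, did not overlap between WT and SE, as for 19.9% of all tested genes in the unnormalized table. It had 1.98 to 3.70 unnormalized FPKM in WT and 0.673 to 0.823 in SE. Its WT minus SE difference on the spike-in scale was 1.82 in vehicle (standard error 0.30, limma adjusted p = 0.000546) and 2.22 in DOX (standard error 0.30, limma adjusted p = 1.43e-05), so TOX was lower in SE. With equal medians it was 1.52 and 1.71 and did not pass (limma adjusted p = 0.361 and 0.308). The vehicle call was lost without either SE DOX library (limma adjusted p = 0.197 for each), and the DOX call without SE DOX A (limma adjusted p = 0.325). The median of the 19 was 0.31 in vehicle on the spike-in scale, beside 0.32 over all genes. The HMGN family had 0 of 5 called in any comparison. HMGN1 itself was higher in SE relative to the median gene, at -0.63 for WT minus SE in vehicle (limma adjusted p = 0.621), while HMGN2 (469 to 656 FPKM) and HMGN3 (138 to 163 FPKM) overlapped between constructs.

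The RAG recombinase, whose cutting complex HMGB1 and HMGB2 assist by bending DNA in vitro, was expressed in all libraries. RAG1 had 71.2 to 109 unnormalized FPKM in WT and 133 to 147 in SE, without overlap, as for 19.9% of all tested genes. RAG2 had 59.1 to 61.9 in WT and 54.0 to 59.7 in SE, which overlap. RAG1 was not called, at -0.72 for WT minus SE in vehicle with equal medians (limma adjusted p = 0.621). Of the receptors and partners of secreted HMGB1 5 of 9 were tested, and TLR4 was called in WT against SE in DOX on the spike-in scale, where 4.66% of all genes were. TLR4 had 4.17 to 7.20 unnormalized FPKM in WT and 3.45 to 4.67 in SE, which overlap, and a WT minus SE difference in DOX of 1.00 (standard error 0.25, limma adjusted p = 0.0268). With equal medians TLR4 was at 0.49 (limma adjusted p = 0.723). The call was also lost without WT DOX A, at 0.56 (limma adjusted p = 0.358), and without SE DOX A, at 1.04 (limma adjusted p = 0.325). Around HMGA2 and let-7, 4 of 8 genes were tested and 0 were called. XPO5, DROSHA and IGF2BP3 were steady, IGF2BP3 at 23.3 to 25.7 FPKM, and LIN28A and LIN28B, which block let-7 processing, did not exceed 0.01 FPKM.

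Genes with the pattern most like each gene were found by Pearson correlation of log2 values over the 8 libraries, with equal medians, among 6935 genes of at least 10 normalized FPKM. The points share the constructs, the letters A and B and the depth of the libraries, and DOX and vehicle libraries of a letter were nearly equal. Picking the nearest among 6935 genes also raises the values, which describe these libraries only. HMGA1 was most like WDR46 (0.998), SLC29A1 (0.996) and DPAGT1 (0.995). HMGB1 was most like PTMA (0.991), MAPRE1 (0.990) and RAD51AP1 (0.989), and HMGB3 like TUBA1C (0.993), H2AFY (0.993) and AKR1A1 (0.989). For HMGB2 the nearest were CYTH2 (0.989), DIS3L2 (0.989) and SLC7A5 (0.988), and for H1FX they were SPN (0.983), EID2 (0.979) and SH2D4B (0.978).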

How the data were processed

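The authors deposited 2 tables of FPKM, unnormalized and normalized, with 23713 rows, of which 92 are ERCC spike-ins, for 8 libraries. HISAT, Cufflinks 2.0.0 and hg19 were used, per the submitters' processing notes, and how the normalized table was made is not given in the sources used. Depth in fragments is not given; relative depth was recovered from low genes whose unnormalized values, above the written floor of 0.01, are whole multiples of the value of 1 fragment (tolerance 0.01 of a fragment for the genes counted).

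Groups came from the treatment and genotype labels. Values were analysed as log2(normalized FPKM + 0.1), on the spike-in scale and with library medians made equal. Spike-ins, 302 rows with names of small RNAs and genes with a mean under 1 were left out, which left 11163 genes. limma 3.58.1 in R 4.3.3 was fitted to 4 group means over all 8 libraries with a mean-variance trend and Benjamini-Hochberg adjustment at 0.05, and was tested on simulated data. Fold changes on this scale understate changes of low genes.

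The genes, lists and tests were chosen with earlier results of these data known. Genes named are the 7 members, the 3 genes most like each tested member, and for each list the members past the threshold or otherwise the 3 of highest mean level; further genes named, such as HIST1H1D, HIST1H1E, LIN28A, LIN28B and genes listed at 0, were chosen after their values were seen. Sequences are RefSeq's. Promoter positions count from the base before the start. Alternatives were small RNA rows kept, a pseudocount of 1, no filter, the unnormalized table, a replicate block and each library left out.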

Additional observations from a re-analysis of the deposited data

Results flagged for a closer look

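The DOX effect of H1FX went in opposite directions with the constructs once library medians were made equal. Both WT pairs were below 0 on the log2 scale, at -0.09 (A) and -0.14 (B), and both SE pairs above it, at 0.12 (A) and 0.05 (B). The difference, WT minus SE, was -0.20 (limma adjusted p = 1.00), and on the spike-in scale, where it was 0.02, all 4 pairs were below 0. With construct and letter together as a replicate block, the difference had a 95% interval of -0.30 to -0.09. Its unadjusted limma p was 0.00188, and it still did not pass (limma adjusted p = 1.00).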

How the results depend on the processing

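The 5 tested genes gave 650 values over the alternatives, of which 647 kept their side of the threshold and 0 reversed a call. The other 3, all for WT against SE in DOX on the spike-in scale without SE DOX replicate B, passed. Uncalled values changed sign in 72 cases. TOX and TLR4 were put through the same 13 settings, a choice of genes made after seeing the data. TOX passed in 9 (vehicle) and 10 (DOX) and TLR4 in 9 on the spike-in scale, with unchanged direction. Both lost their calls with small RNA rows kept and without the filter.

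Counts of all genes called follow in the order WT DOX, SE DOX, difference of DOX effects, WT against SE in vehicle and WT against SE in DOX. On the spike-in scale they were 0, 1, 1, 55 and 520 as reported; 8, 6, 9, 21 and 12 with small RNA rows kept; 0, 0, 0, 52 and 283 with a pseudocount of 1; 0, 0, 0, 22 and 20 without the filter; and 1, 2, 1, 74 and 4152 from the unnormalized table. With equal medians they were 0, 0, 0, 10 and 9 as reported; 5, 6, 6, 19 and 11 with small RNA rows kept; 26, 25, 23, 302 and 325 without the filter; and within 1.5 times of the reported count with a pseudocount of 1 and from the unnormalized table.

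Leaving out a library at a time gave 0 to 23, 0 to 8, 0 to 13, 11 to 265 and 7 to 8766 calls on the spike-in scale and 0 to 0, 0 to 0, 0 to 0, 4 to 8 and 5 to 7 with equal medians. The cause was not tested.

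The replicate block was construct and letter together for the DOX comparisons and their difference, and the letter for WT against SE. With it the counts were 17, 320, 31, 153 and 1656 on the spike-in scale and 2, 0, 0, 18 and 15 with equal medians. Of the 5 genes 0 were called. Same-letter deviations correlated over genes at 0.767 in WT and 0.739 in SE, but with 2 pairs, and no label saying that a letter marks a shared culture, the block stays an alternative.

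With 2 libraries a group, the median 95% interval reached 0.47 on either side of a log2 difference on the spike-in scale and 0.25 with equal medians, though genes with less spread, and the block, have narrower intervals. H1F0 rests on 0 to 3 fragments in each WT library.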
